A study of Mus musculus with 40 samples.

Results

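The 10 genes described here are Trp53, which encodes the transcription factor p53, and 9 genes known as its regulators or targets: Mdm2, Ccng1, Cdkn1a, Btg2, Plk2, Sesn2, Rrm2b, Perp and Trp53inp1. They were picked by symbol in GENCODE mouse release 21 and matched by Ensembl identifier to the deposited counts. All 10 were present among the 55487 genes of the files, and all 10 were among the 11844 genes that passed the filter on low counts. The rule itself used no measured value, but the 10 genes were chosen with earlier results of these data known. On GRCm38 the plus strand carries Trp53 (ENSMUSG00000059552) at chr11:69580359-69591873, Cdkn1a (ENSMUSG00000023067) at chr17:29090976-29100727, Perp (ENSMUSG00000019851) at chr10:18845020-18857073, Plk2 (ENSMUSG00000021701) at chr13:110395046-110400844 and Trp53inp1 (ENSMUSG00000028211) at chr4:11156431-11174379. The minus strand carries Mdm2 (ENSMUSG00000020184) at chr10:117688875-117710758, Sesn2 (ENSMUSG00000028893) at chr4:132492032-132510501, Rrm2b (ENSMUSG00000022292) at chr15:37923952-37961318, Ccng1 (ENSMUSG00000020326) at chr11:40748552-40755311 and Btg2 (ENSMUSG00000020423) at chr1:134075170-134079120. The data are RNA-seq counts from 40 single mouse embryos whose zygotes were injected with 20 μM siRNA 17 to 18 hours after hCG, the hormone that triggers ovulation. The siRNA was directed at Rif1, a regulator of replication timing and of DNA repair (siRif1), or was a control siRNA (siCon). There were 12 siRif1 and 8 siCon embryos at the 8-cell stage, collected 70 hours after hCG, and 13 siRif1 and 7 siCon embryos at the 4-cell stage, collected 63 hours after hCG. Every embryo is labelled as a (C57BL/6J xCBA) x DBA/2J cross, with the DBA number running up by 1 from sample to sample, between 2 and 41. All were cultured in KSOM after the cumulus cells had been removed. Each sample is a different embryo. The labels name no batch, parent or injection day, so the embryos' spread may hold all of these.

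p53 is a tetrameric transcription factor that is kept scarce by the ubiquitin ligase Mdm2 and is stabilised after DNA damage, mostly at the level of the protein. It then binds response elements made of a repeated decamer and activates genes for growth arrest, repair, metabolism and death, Mdm2 among them, which closes a feedback loop. In cleavage embryos many transcripts still come from the oocyte and are lost as the embryo's own genome takes over, so a level at these stages mixes stored and new RNA.

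A response element of this kind lies close to the start of 2 of the genes, Cdkn1a and Ccng1, and its sequence is shown. These genes were also the pair that varied most closely together from embryo to embryo, and a link to the element was not tested. The RefSeq windows of 300 bases (250 before to 50 after a start, GRCm38.p6) covered 7 of the 10 genes, in 8 windows. They were searched on both strands for the full p53 consensus element of 20 bases, its conserved C and G held fixed. With 1 mismatch allowed, the element was found in 2 of these 8 windows and in 22 of all 32851 windows, or 0.067%. Of 51 windows of other known p53 targets, 1 held it. The capitals mark the element, which differs from the consensus at 1 base in each gene.
Cdkn1a, chr17:29090888-29090978, plus strand: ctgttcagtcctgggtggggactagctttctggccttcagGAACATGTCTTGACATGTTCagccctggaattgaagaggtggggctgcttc
Ccng1, chr11:40755422-40755521, minus strand: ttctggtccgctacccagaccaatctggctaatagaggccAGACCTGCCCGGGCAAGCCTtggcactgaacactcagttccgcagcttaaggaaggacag
The element ends 31 bases before the upstream Cdkn1a start and 175 bases before the Ccng1 start. The windows of Trp53, Mdm2, Sesn2, Plk2 and Btg2 and the second Cdkn1a window held no match even with 2 mismatches allowed, at which 0.326% of all windows had one. A match is a resemblance in letters, and binding was not measured here.

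The libraries held between 704863 and 8890551 gene counts, so a low level in CPM (counts scaled to a common library size, with TMM factors) rested on few reads in the shallowest embryos. Rif1 itself averaged 220 ± 92.9 CPM in siRif1 8-cell embryos, against 314 ± 42.6 CPM in siCon 8-cell embryos (SD, n = 12 and 8). At the 4-cell stage it averaged 178 ± 94.5 CPM in siRif1, against 428 ± 107 CPM in siCon embryos (SD, n = 13 and 7). It was below every siCon embryo of its stage in 9 of 12 siRif1 embryos at the 8-cell stage and in 11 of 13 at the 4-cell stage. Its log2 fold change passed at the 4-cell stage (-1.26, edgeR quasi-likelihood test, adjusted p = 0.00643) and not at the 8-cell stage (-0.52, adjusted p = 0.999). All 15 markers of preimplantation embryos had reads in each group. Of the 15 cumulus and granulosa markers, between 5 and 11 had none in a given group. Some embryo markers were low: Eomes had a median of 0 CPM in siRif1 4-cell embryos. Krt8 and Krt18 were at 0 in at least 1 embryo of each 4-cell group. The embryo markers summed to at least 1788 CPM in every embryo. The cumulus and granulosa markers summed to at most 120 CPM in any embryo. Most of that sum was Amhr2, with medians of 55.5 CPM in siRif1 8-cell, 46.6 CPM in siCon 8-cell, 72.2 CPM in siRif1 4-cell and 87.9 CPM in siCon 4-cell embryos, while Col4a1 reached 49.0 CPM and Kitl 21.8 CPM in single embryos. Fshr, Inhba and Ptx3 were at 0 in all groups, and the part of the other markers in the results was not tested. Embryos 3 and 7 of the siCon 4-cell group stood apart: their 22 oocyte transcripts summed to 2301 and 4469 CPM. The same sum lay between 442 and 935 CPM in siRif1 4-cell embryos and between 455 and 1357 CPM in the other 5 siCon 4-cell embryos. Results that move with these embryos are given with and without them.

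**Figure D1:**
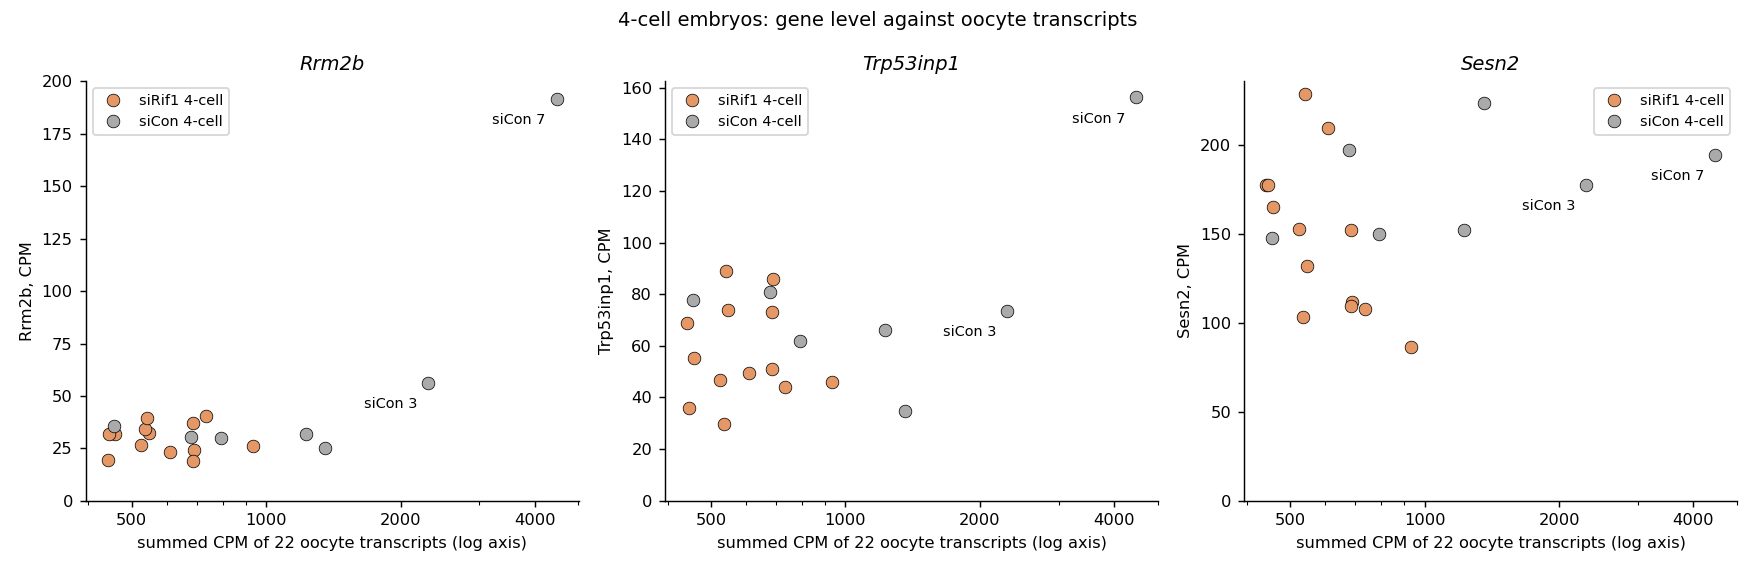
Summed CPM of 22 oocyte transcripts (x axis, log scale) against the CPM of Rrm2b, Trp53inp1 and Sesn2 (y axes, linear) in 4-cell embryos, 1 point per embryo, siRif1 in orange and siCon in grey. The siCon embryo 7, at 4469 CPM on the x axis, has the highest Rrm2b (191.6 CPM) and Trp53inp1 (156.2 CPM), and its Sesn2 (194.7 CPM) lies inside the range of the others.

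The stage comparison asks how the pathway's transcripts change from the 4-cell to the 8-cell stage. In siRif1 embryos, 5 of the 10 genes passed: Perp rose and Sesn2, Rrm2b, Mdm2 and Btg2 fell. Btg2 was close to the detection limit, and it fell below the filter when the siRif1 groups were fitted alone. Of all 11844 genes 29.8% were called, 14.5% higher and 15.3% lower, beside 1 of 10 and 4 of 10 here. In siCon embryos, 5 of 10 also passed, against 30.0% of all genes (13.7% higher, 16.3% lower), with Perp higher and Sesn2, Rrm2b, Mdm2 and Trp53inp1 lower. The median log2 fold change of the 10 genes was -0.60 in siRif1 embryos and -0.97 in siCon embryos, beside -0.0093 and -0.033 for all tested genes. With the ERCC spike-in totals as factors, which move the median of all genes to 0.46 in siRif1 and 0.49 in siCon embryos, 1 gene was higher and 2 were lower in each siRNA group: Perp was higher in both, Rrm2b and Btg2 were lower in siRif1 embryos, and Sesn2 and Rrm2b were lower in siCon embryos. Of all genes, 23.1% were then higher and 3.72% lower in siRif1 embryos, and 15.2% higher and 3.59% lower in siCon embryos. Mdm2 in both groups, Sesn2 in siRif1 and Trp53inp1 in siCon embryos then no longer passed, and each kept its sign. All adjusted p-values of single genes below come from edgeR's quasi-likelihood test over all 11844 genes, and a log2 fold change is 8-cell over 4-cell, or siRif1 over siCon.

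Sesn2 and Rrm2b had the lowest adjusted p of the genes that fell in either siRNA group. Sesn2 encodes a stress-induced sestrin that restrains growth signalling through mTORC1. In siRif1 embryos it spanned 47.1 to 100.1 CPM at the 8-cell stage, with a median of 75.1, and 86.4 to 229.0 CPM at the 4-cell stage, with a median of 152.3. Of the siRif1 8-cell embryos, 9 of 12 were below every siRif1 4-cell embryo (95% interval of the log2 fold change -1.36 to -0.64, adjusted p = 4.26e-05). Sesn2 reached 19.9, 32.4, 61.3, 31.1, 47.1, 91.5, 20.9 and 39.2 CPM in the siCon 8-cell embryos. In the siCon 4-cell embryos it reached 147.7, 149.9, 177.8, 197.3, 223.9, 152.2 and 194.7 CPM. These groups did not overlap: all 8 siCon 8-cell embryos were below all 7 siCon 4-cell embryos (log2 fold change -2.05, SE 0.24, adjusted p = 2.84e-08). How many of all 11844 genes separate these groups in this way was not counted, here or for Rrm2b below.

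Rrm2b encodes the p53-inducible small subunit of ribonucleotide reductase, which supplies deoxynucleotides for repair. In siRif1 embryos its median was 12.7 CPM at the 8-cell stage (range 6.2 to 19.1) and 31.7 CPM at the 4-cell stage (range 18.8 to 40.5). Of the 12 siRif1 8-cell embryos, 10 lay below every siRif1 4-cell embryo (-1.18, SE 0.26, adjusted p = 0.000479). It was at 8.4, 6.3, 4.5, 13.6, 7.5, 10.4, 12.1 and 11.6 CPM in the siCon 8-cell embryos. It was at 35.8, 29.8, 56.2, 30.3, 25.3, 31.7 and 191.6 CPM in the siCon 4-cell embryos, again with no overlap (-2.62, SE 0.34, adjusted p = 1.65e-07). Without the siCon 4-cell embryos 3 and 7, which hold its 2 highest values there, the fall was -1.74 and still passed. Rrm2b shares 734 exon bases with an opposite-strand gene, Gm49085. The library kit does not mark strand, and reads of the genes cannot be told apart where they overlap.

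Mdm2 also fell in both siRNA groups. It averaged 47.3 ± 15.4 CPM in siRif1 8-cell embryos and 82.9 ± 30.8 CPM in siRif1 4-cell embryos (SD, n = 12 and 13; -0.81, SE 0.20, adjusted p = 0.00166). It averaged 41.8 ± 13.9 CPM in siCon 8-cell embryos, against 98.5 ± 33.6 CPM in siCon 4-cell embryos (SD, n = 8 and 7; -1.24, SE 0.25, adjusted p = 0.000226). The ranges met: 5 of 12 siRif1 and 5 of 8 siCon 8-cell embryos were below every 4-cell embryo of their own siRNA group. Without the siCon 4-cell embryos 3 and 7, which hold its highest values there, the siCon 4-cell mean was 81.7 ± 19.6 CPM (SD, n = 5).

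Trp53inp1, a nuclear protein induced by p53 in stressed cells, had a median of 47.0 CPM at the 8-cell stage and 51.0 CPM at the 4-cell stage in siRif1 embryos, and the difference of -0.36 did not pass (adjusted p = 0.228). Its median was 35.9 CPM in siCon 8-cell embryos (range 11.4 to 62.0), against 73.5 CPM in siCon 4-cell embryos (range 34.9 to 156.2). That difference was -1.21 (SE 0.29, adjusted p = 0.00129), and -0.94 and still past without the siCon 4-cell embryos 3 and 7.

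Perp, a desmosomal membrane protein and mediator of p53-dependent cell death, was the single gene of the 10 that rose. Perp spanned 4.2 to 62.9 CPM in siRif1 8-cell embryos (median 31.8) and 0.0 to 20.1 CPM in siRif1 4-cell embryos (median 3.9), a rise of 2.34 (SE 0.52, adjusted p = 0.000752). Of the 12 siRif1 8-cell embryos, 7 exceeded every siRif1 4-cell embryo. It was at 56.3, 9.2, 25.7, 8.0, 3.1, 8.5, 58.7 and 15.5 CPM in siCon 8-cell embryos. It was at 2.2, 1.3, 7.8, 2.5, 0.0, 0.0 and 1.6 CPM in siCon 4-cell embryos, so 7 of 8 siCon 8-cell embryos were above all 7 (3.30, SE 0.73, adjusted p = 0.000711).

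**Figure D2:**
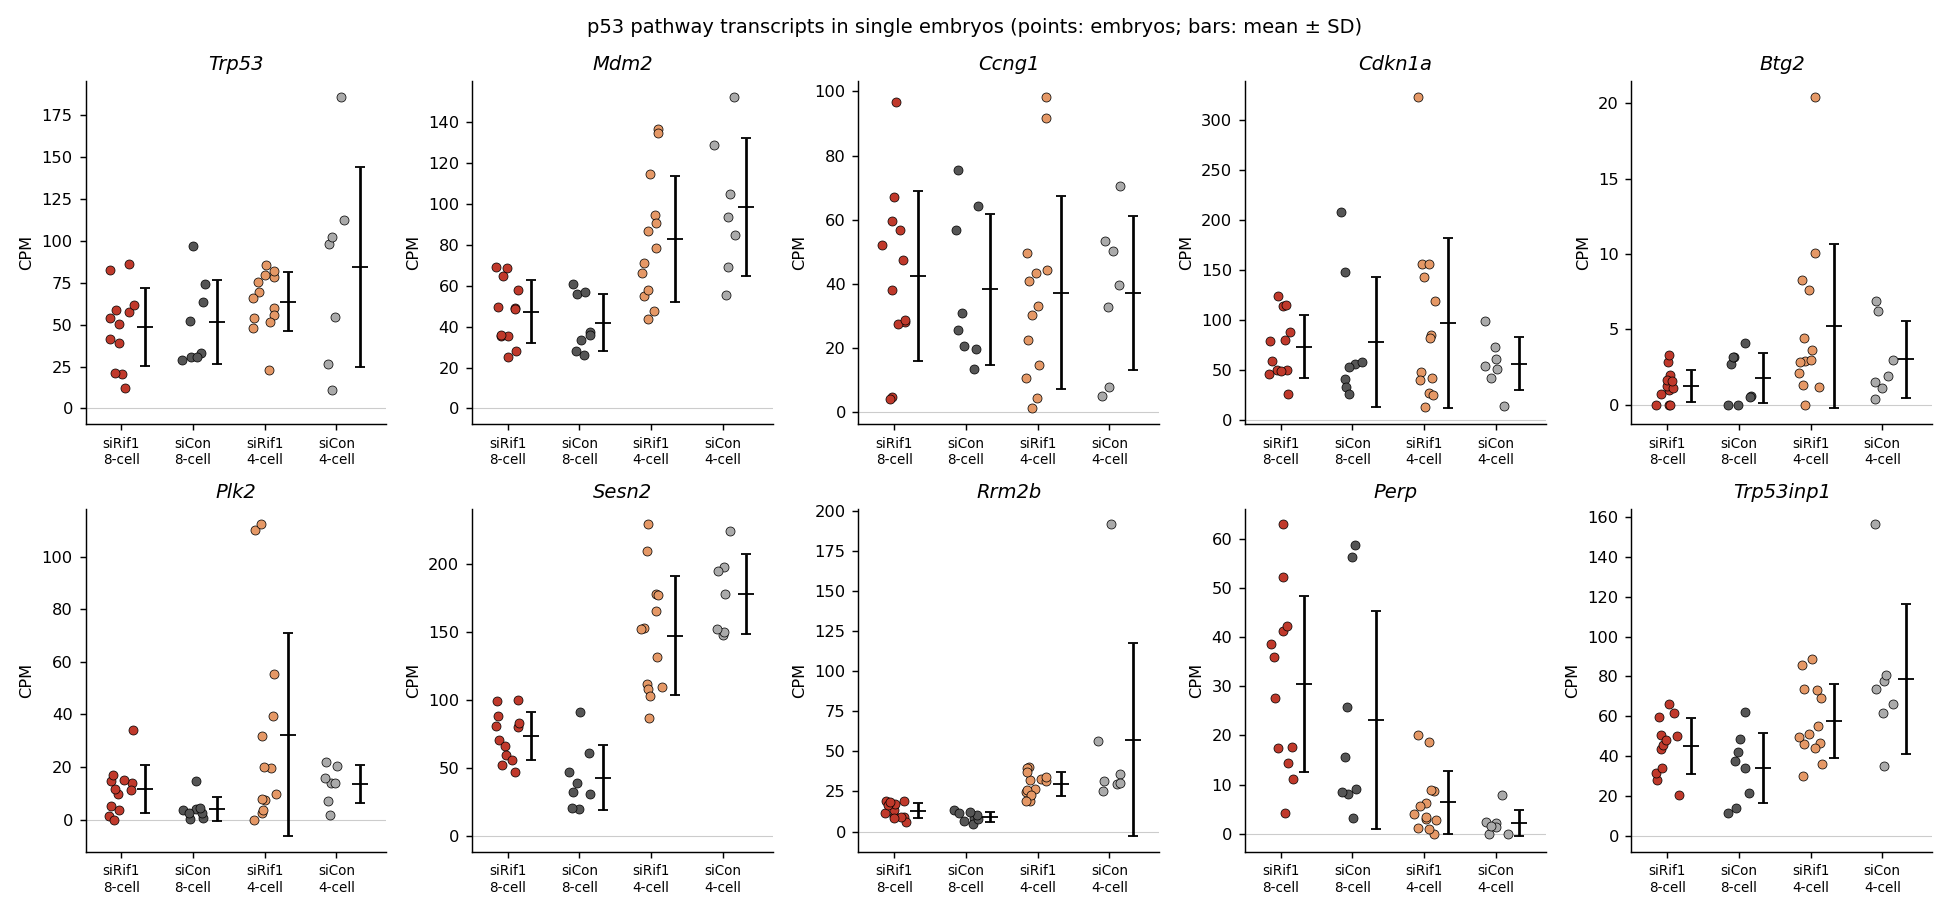
CPM of each of the 10 genes (y axes, linear, each with its own scale) in every embryo, 1 point per embryo, grouped by siRNA and stage, with the mean ± SD beside the points. Sesn2 and Rrm2b are lower in all 8 siCon 8-cell embryos than in any siCon 4-cell embryo, and 7 of 8 siCon 8-cell embryos have more Perp than any siCon 4-cell embryo. How many of all genes separate the stages in this way was not counted.

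Among the cell cycle genes, only Btg2 passed in a stage comparison. Btg2, an antiproliferative adaptor of the mRNA deadenylation machinery, was close to the detection limit. It was at 0 in 3 of 12 siRif1 8-cell and in 1 of 13 siRif1 4-cell embryos, with medians of 1.16 and 2.93 CPM and a highest count of 6 and 54. Its fall in siRif1 embryos was -2.03 (SE 0.62, adjusted p = 0.0118), and in siCon embryos it was at -0.73 (SE 0.76, adjusted p = 0.493). Btg2 fell below the filter on low counts when the 8-cell, siCon or siRif1 groups were fitted alone. Its call therefore depends on fitting all groups together, and the size of its fall is poorly determined.

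Plk2, a Polo-like kinase of the G1 and S phases, had the same sign and missed the threshold. Its medians were 11.5 CPM in siRif1 8-cell and 19.7 CPM in siRif1 4-cell embryos (-1.47, SE 0.60, adjusted p = 0.0587), and 3.11 CPM in siCon 8-cell against 14.0 CPM in siCon 4-cell embryos (-1.73, SE 0.81, adjusted p = 0.101). The call turned on single embryos. It passed in siRif1 embryos without any 1 of the 4-cell embryos 1, 6, 8, 10 and 13 or the 8-cell embryo 10, with adjusted p between 0.0292 and 0.0489. It also passed in siCon embryos without the siCon 8-cell embryo 8 (-2.40, adjusted p = 0.0318).

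Cdkn1a, Ccng1 and Trp53 passed in neither stage comparison. Cdkn1a encodes p21, the cyclin-dependent kinase inhibitor that carries much of the p53 arrest, and had medians of 68.8 CPM in siRif1 8-cell against 81.3 CPM in siRif1 4-cell embryos, and 54.5 CPM in siCon 8-cell against 53.7 CPM in siCon 4-cell embryos. Its log2 fold change was -0.40 in siRif1 embryos (95% interval -1.16 to 0.35) and 0.47 in siCon embryos (-0.52 to 1.45). Ccng1 encodes cyclin G1, which brings a phosphatase to Mdm2, and was at 0.20 (-0.71 to 1.10) in siRif1 and 0.037 (-1.13 to 1.21) in siCon embryos. Trp53 was at -0.39 (-0.96 to 0.18) in siRif1 and -0.72 (-1.45 to 0.0019) in siCon embryos. With each embryo left out, the siCon value lay between -0.92 and -0.40 (edgeR, adjusted p between 0.0385 and 0.443). It passed only without the 4-cell embryo 5, its lowest value there (-0.91, adjusted p = 0.0385). Without the siCon 4-cell embryos 3 and 7, the Trp53 mean of that group was 60.6 CPM in place of 84.5 CPM. The siCon 8-cell mean was 51.3 CPM. The intervals of Cdkn1a and Ccng1 reach past a 2-fold change in at least 1 direction in both siRNA groups. Cdkn1a overlaps an antisense gene, AC167363.2, over 273 exon bases. The deposited unstranded count holds 83.7% of the reads that its 2 stranded counts give together.

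The siRNA comparison asks whether these transcripts differed between siRif1 and siCon embryos. At the 8-cell stage none of the 10 genes passed, with 0.00844% of all genes called (1 gene, higher). At the 4-cell stage none passed either, with 0.566% called (67 genes, 0.127% higher and 0.439% lower). Before adjustment, edgeR's p was below 0.05 for Sesn2 and Plk2 at the 8-cell stage, beside 349 of all 11844 genes. At the 4-cell stage it was below 0.05 for Rrm2b, beside 1320 of all 11844 genes. DESeq2 and limma-voom also called 0 of 10 at each stage. The median log2 fold change of the 10 genes was 0.29 at the 8-cell stage and -0.12 at the 4-cell stage. Of the 10 genes, 7 and 4 were above 0. Over all genes the median was 0.0042 and -0.015.

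**Figure D3:**
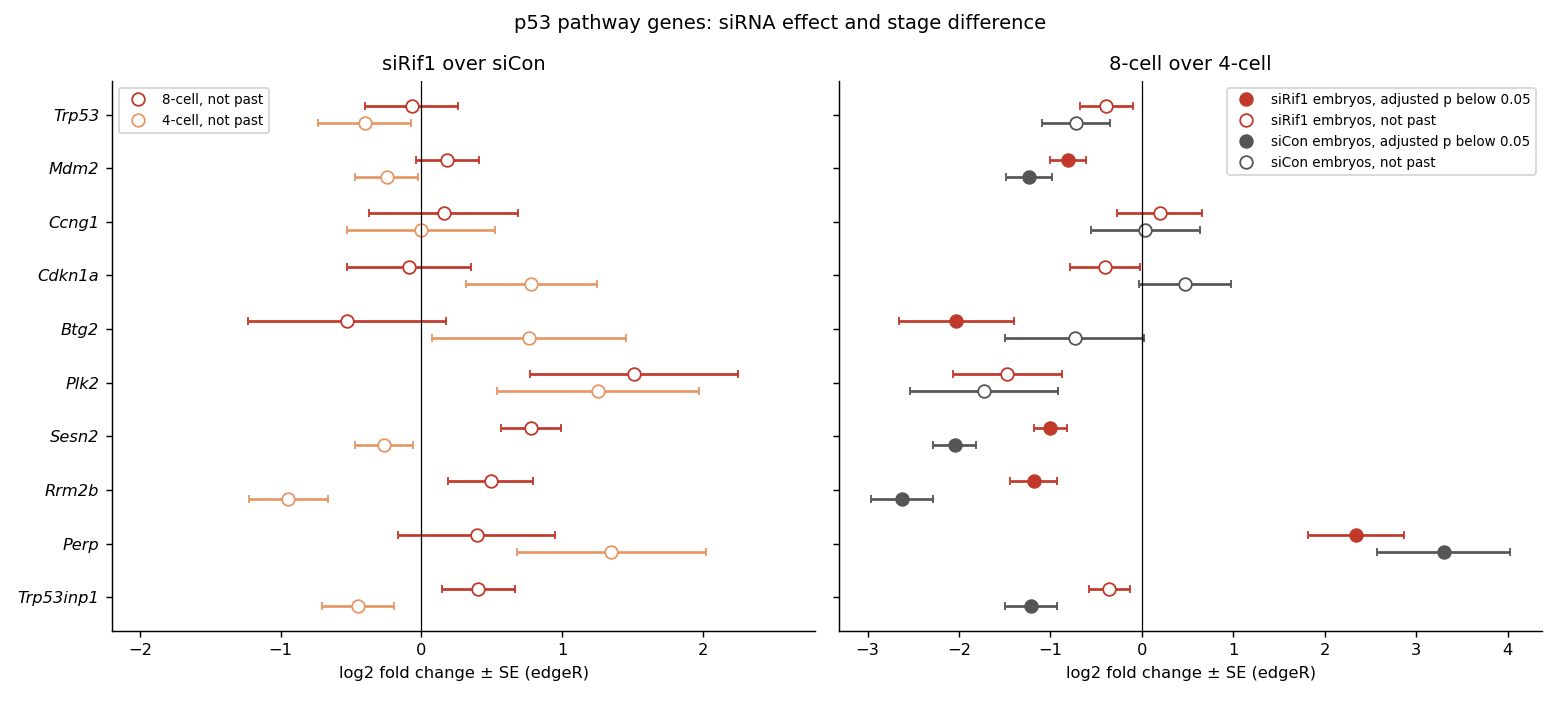
Log2 fold change ± SE from edgeR for the 10 genes (rows): siRif1 over siCon in the left panel, for 8-cell and 4-cell embryos, and 8-cell over 4-cell in the right panel, for siRif1 and siCon embryos. Filled points passed an adjusted p of 0.05. None is filled on the left, and 5 per siRNA group are filled on the right.

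Sesn2 was the nearest to a difference at the 8-cell stage. Its level averaged 73.6 ± 17.8 CPM in siRif1 embryos, against 42.9 ± 23.9 CPM in siCon embryos (SD, n = 12 and 8), and 5 of the 8 siCon embryos lay below every siRif1 embryo. The log2 fold change was 0.78 (95% interval 0.37 to 1.20; edgeR, p = 0.000602, adjusted p = 0.999). Embryo 6 of the siCon group, at 91.5 CPM, decided the call: without it the value was 1.04 and passed (adjusted p = 0.0363). That embryo was also the highest of the siCon 8-cell group for Trp53, Mdm2, Ccng1 and Trp53inp1. At the 4-cell stage Sesn2 was at -0.27 (-0.67 to 0.14).

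Rrm2b came closest at the 4-cell stage, and its value moved with 2 control embryos. It averaged 29.7 ± 7.26 CPM in siRif1 embryos, against 57.2 ± 60.1 CPM in siCon embryos (SD, n = 13 and 7), with a log2 fold change of -0.95 (-1.49 to -0.40; edgeR, p = 0.0015, adjusted p = 0.102). Without the siCon embryos 3 and 7 the remaining 5 controls averaged 30.6 ± 3.79 CPM and the log2 fold change was -0.038 (adjusted p = 0.989). Leaving out siCon embryo 1 alone brought the full comparison past the threshold (-1.03, adjusted p = 0.0479). Trp53inp1 was at -0.45 with the 2 embryos and -0.16 without them.

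Plk2 and Cdkn1a varied more between siRif1 4-cell embryos than between siCon ones, but a difference in spread was not tested. Plk2 spanned 0.0 to 112.3 CPM in siRif1 4-cell embryos, with 5 of 13 above every siCon embryo, and 1.61 to 22.0 CPM in siCon 4-cell embryos (1.26, SE 0.72, adjusted p = 0.535). At the 8-cell stage it spanned 0.0 to 34.3 CPM in siRif1 and 0.31 to 14.6 CPM in siCon embryos (1.51, SE 0.74, adjusted p = 0.999). Relative to the mean, the SD of Plk2 was 119% in siRif1 and 52.6% in siCon 4-cell embryos. At the 8-cell stage the order was reversed, with 79.4% in siRif1 and 111% in siCon embryos. Cdkn1a spanned 12.6 to 323.0 CPM in siRif1 4-cell embryos, again with 5 of 13 above every siCon embryo, and 13.8 to 98.4 CPM in siCon 4-cell embryos (0.78, SE 0.47, adjusted p = 0.562). The siRif1 embryo 9 had the highest Cdkn1a, Mdm2 and Btg2 of its group, and the siRif1 embryo 12 the highest Sesn2, Plk2 and Trp53inp1. At the 8-cell stage Cdkn1a was at -0.090 (SE 0.44), and its SD was smaller in siRif1 (31.7 CPM) than in siCon embryos (64.6 CPM). Perp was at 1.35 (SE 0.67, adjusted p = 0.453) in 4-cell embryos and 0.39 (SE 0.56) in 8-cell embryos. The other genes lay between -0.40 and 0.77 at the 4-cell stage for Trp53, Mdm2, Ccng1 and Btg2, and between -0.53 and 0.18 at the 8-cell stage. At the 8-cell stage Rrm2b was at 0.49 (SE 0.30) and Trp53inp1 at 0.40 (SE 0.26).

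The interaction of siRNA and stage, the 8-cell effect minus the 4-cell effect, tests whether the stages differ in their response. None of the 10 genes passed in edgeR, and none of the 11844 genes did (0%), with 734 at an unadjusted p below 0.05. Unadjusted, 3 of the 10 genes were below 0.05: Sesn2 at 1.05 (SE 0.29, adjusted p = 0.318), Rrm2b at 1.44 (SE 0.41, adjusted p = 0.335) and Trp53inp1 at 0.85 (SE 0.36, adjusted p = 0.709). Without the siCon 4-cell embryos 3 and 7, Sesn2 stayed at 1.03, whereas Rrm2b was at 0.54 and Trp53inp1 at 0.57. DESeq2 called 10 genes in all and none of these 10.

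Levels of different genes were compared per kilobase of merged exon. Sesn2 had the highest mean of the 10 in siRif1 8-cell embryos (21.2 CPM per kb), siRif1 4-cell embryos (42.4) and siCon 4-cell embryos (51.1), while in siCon 8-cell embryos Cdkn1a came first (21.9) and Sesn2 was at 12.4. Btg2 had the lowest mean in every group, at 0.46, 0.65, 1.90 and 1.09 CPM per kb in siRif1 8-cell, siCon 8-cell, siRif1 4-cell and siCon 4-cell embryos. Most of the order was not resolved, with neighbours closer than the larger of their SDs. Sesn2 led its next gene by more than that in siCon 4-cell embryos alone, and Cdkn1a, at 20.5 CPM per kb in siRif1 8-cell and 27.1 in siRif1 4-cell embryos, lay within it. Btg2 was set apart from the next gene in siRif1 8-cell embryos alone. In the siCon 8-cell embryos Trp53, Sesn2, Perp, Ccng1 and Mdm2 lay between 8.23 and 12.7 CPM per kb. The level of a transcript per embryo cannot separate fewer cells carrying it from less RNA in each cell.

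A further 40 known p53 targets and 35 regulators of p53 were read from the same fit, 31 and 29 of them tested. Of the other targets none passed in either siRNA comparison. In the stage comparison 11 of 31 passed in siRif1 embryos, 4 higher and 7 lower, and 7 of 31 in siCon embryos, 3 higher and 4 lower. These are 35.5% and 22.6% of the targets, beside 29.8% and 30.0% of all genes. With ERCC factors the split was 6 higher and 1 lower in siRif1 and 4 higher and 2 lower in siCon embryos, where 26.8% and 18.8% of all genes were called. Of the targets named next, Ei24, Apaf1 and Ddit4, and Dram1 in siRif1 embryos, then no longer passed, and each kept its sign. Bbc3, which encodes the BH3-only protein PUMA, fell by 2.98 on the log2 scale in siRif1 embryos and by 2.71 in siCon embryos (adjusted p = 2.19e-06 and 0.000248), and Apaf1, the apoptosome scaffold, fell by 1.09 and by 1.33. Ei24, an endoplasmic reticulum protein induced by p53, fell by 1.26 and by 1.12. Dram1, a lysosomal protein of autophagy, fell by 1.14 in siRif1 and by 2.17 in siCon embryos, and Ddit4, an inhibitor of mTORC1, fell by 1.07 in siRif1 embryos. The 8-cell means of Dram1 were also low, at 4.78 CPM in siRif1 and 2.92 CPM in siCon embryos. The plexin Plxnb2 rose by 1.72 in siRif1 and 1.18 in siCon embryos, the transcription factor Foxo3 by 1.17 and 1.41, the spindle protein Psrc1 by 1.09 and 1.59, and Sfn, which encodes 14-3-3 sigma, by 0.85 in siRif1 embryos. Psrc1 in siCon embryos no longer passed without embryos 3 and 7 (1.21, adjusted p = 0.168).

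Among the regulators, 8 of 29 passed in siRif1 embryos (5 higher, 3 lower) and 9 of 29 in siCon embryos (4 higher, 5 lower) between the stages, or 27.6% and 31.0%, close to the 29.8% and 30.0% of all genes. With ERCC factors 7 were higher and 1 lower in siRif1 and 4 higher and 2 lower in siCon embryos. Mdm4, the partner of Mdm2 that masks the p53 activation domain, fell by 1.05 in siRif1 and by 1.81 in siCon embryos (adjusted p = 1.33e-05 and 1.21e-07). Trp53bp1, which encodes the break-repair protein 53BP1, fell by 1.55 and by 1.90. The ribosomal proteins Rpl5 and Rpl11, which can bind and restrain Mdm2, rose by 0.75 and 0.42 in siRif1 embryos and by 0.90 and 0.73 in siCon embryos. The nucleolar chaperone Npm1 rose by 0.40 in siRif1 and by 0.63 in siCon embryos, and in siCon embryos it no longer passed without embryos 3 and 7 (0.43, adjusted p = 0.0669). Trim24, a ubiquitin ligase for p53, rose by 0.99 in siRif1 and 0.94 in siCon embryos. Prmt5, an arginine methyltransferase, rose by 0.62 and the damage kinase Atr fell by 1.32 in siRif1 embryos. Hipk2, a p53 kinase, fell by 1.80 in siCon embryos, and so did Chek1 by 0.79, which no longer passed without embryos 3 and 7 (-0.27, adjusted p = 0.367). With ERCC factors Mdm4 and Atr in siRif1 embryos and Npm1, Hipk2 and Chek1 in siCon embryos no longer passed, and each kept its sign.

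Chek1, the replication checkpoint kinase, was the single regulator past the threshold in an siRNA comparison. It averaged 47.1 ± 11.4 CPM in siRif1 4-cell embryos, against 82.9 ± 57.8 CPM in siCon 4-cell embryos (SD, n = 13 and 7; -0.83, edgeR, adjusted p = 0.049). Without the siCon embryos 3 and 7 its value was -0.29 (adjusted p = 0.79). The nearest targets in the siRNA comparisons were Pmaip1 (1.57, adjusted p = 0.359) and Psrc1 (1.11, adjusted p = 0.432) at the 4-cell stage and Plxnb2 (0.51) and Eda2r (1.10) at the 8-cell stage, both with an adjusted p of 0.999.

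Whether the genes varied together from embryo to embryo was examined after each group's mean had been subtracted from the log2 CPM values. This removes the mean differences between stages and siRNAs, but not differences among the embryos of a group. Rif1, for example, ranged from 88.3 to 381 CPM among siRif1 4-cell embryos, and its part in the pairs was not tested. Of 45 pairs among the 40 embryos, 8 had an adjusted p below 0.05 (permutation within groups, two-sided, Benjamini-Hochberg over the 45 pairs), 7 of them positive. The median r was 0.24, beside 0.002 over all pairs of tested genes, and 35 of 45 pairs were positive. The share of all gene pairs that would pass the same test was not counted, so how unusual 8 of 45 is cannot be told. Of the 7 positive pairs that passed, 6 were among Cdkn1a, Ccng1, Mdm2, Plk2 and Sesn2.

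Cdkn1a and Ccng1 had the highest correlation. Pearson's r was 0.588 and Spearman's rho 0.619 (permutation, adjusted p = 0.0054 and 0.0027), with r of 0.571 over the 8-cell and 0.598 over the 4-cell embryos. It was 0.596 without the 2 embryos farthest from the median of Cdkn1a and 0.681 without the siCon 4-cell embryos 3 and 7. Of the 11843 other tested genes, Ccng1 ranked 8 in likeness to Cdkn1a. Trp53 and Cdkn1a had r of 0.068 (permutation-adjusted p = 0.769).

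Mdm2 was tied to Plk2 (r = 0.531, rho = 0.564), Ccng1 (r = 0.526, rho = 0.599) and Sesn2 (r = 0.478, rho = 0.466), with permutation-adjusted p of 0.0098, 0.0098 and 0.0138 for r. Plk2 and Ccng1 had r of 0.518 (rho = 0.512), and Sesn2 and Ccng1 0.473 (rho = 0.566). Trp53 itself passed by r with 1 partner, Sesn2 (r = 0.396, rho = 0.435, permutation-adjusted p = 0.0179), where r was 0.631 over 8-cell and 0.131 over 4-cell embryos. With depth, ERCC ratio and mitochondrial share removed, that pair no longer passed (r = 0.329, permutation-adjusted p = 0.0586). Trp53 and Ccng1 missed the threshold by r (0.392, permutation-adjusted p = 0.0534) and passed by rho (0.524, adjusted p = 0.00603) and by r with those measures removed (0.473, adjusted p = 0.0102). Without the 2 embryos farthest from the median of the first gene, r was 0.354 for Trp53 and Ccng1. For the other pairs of this paragraph it was between 0.431 and 0.549. The pairs share a library and its scaling, and across embryos the 10 genes' own r with library depth ranged from -0.148 to 0.403.

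Cdkn1a and Rrm2b were the 1 negative pair that passed (r = -0.474, rho = -0.418, permutation-adjusted p = 0.0117 for r). Without the siCon 4-cell embryos 3 and 7 it no longer passed: r was -0.380 and the adjusted p 0.0628. It was -0.222 over 8-cell and -0.616 over 4-cell embryos.

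**Figure D4:**
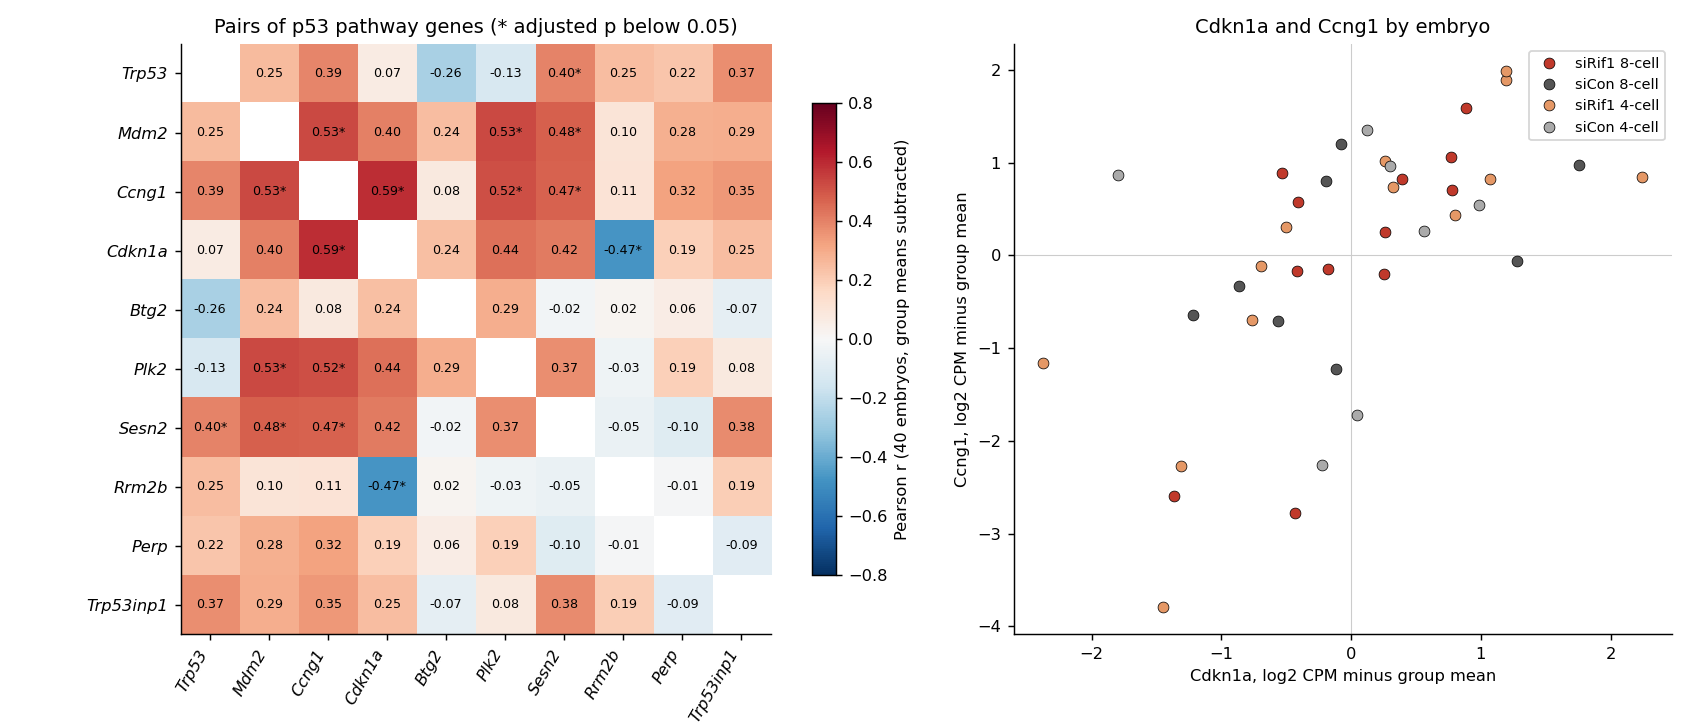
Left, Pearson's r between the 10 genes over 40 embryos after subtraction of group means (blue negative, red positive, an asterisk for an adjusted p below 0.05). Right, Cdkn1a against Ccng1 as centred log2 CPM, 1 point per embryo coloured by group, with r = 0.588 over all embryos.

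Over all tested genes, those most like Trp53 across the 40 embryos were Tex19.1 (r = 0.696), Pef1 (0.667) and Prkar1a (0.666). Those most like Mdm2 were Yod1 (0.653), Tmem250-ps (0.617) and Cavin1 (0.613). For Cdkn1a they were Zfp707 (0.671), Eda2r (0.650) and Cplane1 (0.647), of which Eda2r, a receptor of the tumour necrosis factor family, is on the list of known p53 targets. These were the highest of 11843 values each, given as a description.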

How the data were processed

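Single 4-cell and 8-cell mouse embryos were profiled by SMART-seq2, a full-length cDNA protocol without strand or molecular identifiers. Reads were aligned and counted per gene with STAR 2.7.6a on GRCm38, per the submitters' processing notes; these notes name no annotation release. The deposited files hold the authors' raw counts per gene, unstranded and for each strand, with 92 ERCC spike-in entries and 4 summary entries kept out of library sizes. The unstranded counts were used, named through GENCODE release 21 (55227 of 55487 genes). The fit was edgeR 4.0.16 (R 4.3.3) with TMM factors, filterByExpr at a minimum count of 10, 1 coefficient per group over all 40 embryos, robust quasi-likelihood tests, and Benjamini-Hochberg adjustment at 0.05. On simulated counts for the siCon stage comparison it recovered 27 of 100 2-fold and 69 of 100 4-fold changes, with 2 false calls. Most 2-fold changes were thus missed, and the siRNA comparisons were not simulated. Alternatives used limma 3.58.1, DESeq2 1.42.0, RLE or ERCC factors, no filter, the compared groups alone, a replicate block, and each embryo left out. Log2 CPM values for correlations had a prior count of 2, with 100000 permutations. No 2 libraries of a group agreed within sampling noise (lowest chi-square per degree of freedom 7.14). All 10 genes are named; of the other lists, genes past the threshold in the siRNA comparisons, up to 4 each way per stage comparison by smallest p, and otherwise the 2 with the smallest p. The 10 genes and all lists were chosen with earlier results of these data known. Promoter sequences are from RefSeq on GRCm38.p6. The total count per embryo sets the precision, and PCR reads are not independent molecules.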

Additional observations from a re-analysis of the deposited data

Results flagged for a closer look

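In 4 of 20 sets formed by a gene and a group of 7 or 8 embryos, 1 embryo stood farther from the rest than Dixon's 95% limit allows. For normally distributed values about 1 in 20 sets would do so by chance. That rate need not hold for CPM, and the sets share embryos, so the 4 flags are a description. Rrm2b reached 191.6 CPM in siCon 4-cell embryo 7, where the other embryos lay between 25.3 and 56.2 CPM. Trp53inp1 reached 156.2 CPM in the same embryo, against 34.9 to 80.9 CPM in the others. Perp was at 7.81 CPM in siCon 4-cell embryo 3, against 0.0 to 2.45 CPM. Plk2 was at 14.6 CPM in siCon 8-cell embryo 8, against 0.31 to 4.4 CPM. Embryos 3 and 7 also had the highest summed oocyte transcripts (2301 and 4469 CPM), whose part in these values was not tested.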

How the results depend on the processing

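The 5 genes called in each stage comparison kept their direction under every alternative run, though Btg2 fell below the filter and gave no value when the 8-cell groups, the siCon groups or the siRif1 groups were fitted alone. With ERCC totals as factors, 3 genes were called in each, and the median of all genes moved to 0.46 in siRif1 and 0.49 in siCon embryos. Mdm2 then no longer passed (siRif1 -0.32, or -0.78 relative to that median; siCon -0.58, or -1.06), nor did Sesn2 in siRif1 (-0.55, or -1.02) or Trp53inp1 in siCon embryos (-0.71, or -1.19). Plk2 passed in siRif1 embryos with DESeq2 (-1.53) and in siCon embryos with the compared groups alone (-1.78). The cause was not tested.

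Values near 0 changed sign, none of them past the threshold. Between stages in siCon embryos these were Btg2 with ERCC factors (0.22), Ccng1 with RLE factors (-0.031), the compared groups alone (-0.016) and DESeq2 (-0.023), and Cdkn1a with limma-voom (-0.10). In siRif1 embryos they were Cdkn1a with ERCC factors (0.094) and limma-voom (0.10), Trp53 (0.13) and Trp53inp1 (0.13) with ERCC factors. At the 8-cell stage they were Cdkn1a with limma-voom (0.20) and Trp53 with ERCC factors (0.031). At the 4-cell stage they were Ccng1 with ERCC factors (0.065), no filter (0.016) and the compared groups alone (0.0012), Trp53 with limma-voom (0.038), and, without siCon embryos 3 and 7, Ccng1 (0.41), Mdm2 (0.026) and Trp53 (0.074). In the interaction they were Ccng1 (-0.24) and Trp53 (-0.14) without those 2 embryos, and Cdkn1a (0.19) and Trp53 (-0.12) with limma-voom.

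With each embryo left out in turn, 5 to 6 genes were called in each stage comparison, 0 to 1 in each siRNA comparison and 0 in the interaction. Signs changed for Ccng1 (-0.18 to 0.27 between stages in siCon embryos, -0.073 to 0.38 in the interaction, -0.22 to 0.23 at the 4-cell and -0.018 to 0.38 at the 8-cell stage), Plk2 (-0.027 to 0.93 in the interaction), and Cdkn1a (-0.22 to 0.30) and Trp53 (-0.17 to 0.13) at the 8-cell stage. Over all genes, the 67 calls of the 4-cell siRNA comparison became 238, 134, 9 and 14 without siCon 4-cell embryos 1, 2, 3 and 7, and 37 and 43 without siRif1 4-cell embryos 8 and 11.

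Deviations of same-numbered embryos from their group means had r between -0.235 and 0.174. Differently numbered embryos were not compared, so these values cannot decide whether the numbers pair embryos. The labels do not say that they do. With the replicate number as a block the genes called among the 10 were 0 and 0 for siRNA at the 8-cell and 4-cell stages, 5 in each stage comparison and 0 in the interaction, while calls over all genes at the 4-cell siRNA comparison were 0 in place of 67. That count was 322 without a filter, 192 with DESeq2, 4 with limma-voom, 4 with ERCC factors, 2 with the compared groups alone and 1 without siCon embryos 3 and 7. Of the 45 pairs, 12 passed by Spearman, 9 without siCon embryos 3 and 7 (7 of the 8) and 13 with depth, ERCC ratio and mitochondrial share removed, an alternative chosen after seeing the data (7 of the 8). Further alternatives for the other lists, ERCC factors and leaving out those embryos, were also chosen after seeing the data. With ERCC factors the median of the other targets between stages was 0.29 in siRif1 and 0.22 in siCon embryos, against -0.18 and -0.33 with TMM. Btg2, Perp and Plk2 reached 0 counts in some embryos, which limits their folds.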
